A study of Mus musculus with 5 samples.

Results

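The genes described here are 10 members of the machinery by which mononucleated myoblasts recognise one another, adhere and merge into multinucleated muscle fibres: Mymk, Mymx, Cdh15, Cdh2, Jam2, Jam3, Nphs1, Kirrel, Myof and Dock1. They were taken by symbol, 10 of 25873 named genes, from a table of RNA levels in sorted muscle progenitor-lineage cells. Myoblast fusion in vertebrates proceeds from contact and adhesion, through remodelling of cortical actin, to the joining of the lipid bilayers. The last steps need a pair of muscle proteins, myomaker (Mymk) and the micropeptide myomixer (Mymx, also called myomerger or minion). Notch signalling is known for holding muscle progenitors in an undifferentiated state, upstream of the step at which cells leave the cell cycle and become competent to fuse.

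The cells were tdTomato-positive and negative for the lineage stains, sorted from the limb muscle of C57BL/6J fetuses at E16.5 (days of embryonic development). All groups carried the Pax7-CreER allele and the Rosa-tdTomato reporter, so that cells of the Pax7 lineage and their descendants were marked, and all dams received tamoxifen by mouth at 240 mg per kg for 2 days from E12.5. The wild-type control (WT, Pax7-CreER; Rosa-tdTomato) had 2 libraries, the Notch1 conditional knockout (Notch1 cKO, Pax7-CreER; Notch1 f/f; Rosa-tdTomato) had 1, and the Notch2 conditional knockout (Notch2 cKO, Pax7-CreER; Notch2 f/f; Rosa-tdTomato) had 2. The dissociation harvested mononuclear cells, so RNA of fibres that had already formed is represented only as far as it entered the sort. Nothing in the labels ties replicates to separate fetuses, so p-values measure only the spread between these libraries, which may be technical. Libraries are named by their group and the tag in the table. The RPKM values imply 20740000 to 28830000 reads per library, and the 9 members averaging 1 RPKM or more had 174 to 16084 reads each in a library.

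The targeted genes were read first. For Notch1, WT Em2 held 7.26 RPKM and WT Em4 13.5 RPKM, Notch1 cKO Em8 held 2.33 RPKM, and the Notch2 cKO libraries Em3 and Em4 held 11.8 RPKM and 8.39 RPKM, so it was lowest where it was targeted. For Notch2, WT Em2 held 2.40 RPKM and WT Em4 4.17 RPKM, Notch1 cKO Em8 held 3.90 RPKM, and the Notch2 cKO libraries Em3 and Em4 held 3.35 RPKM and 2.03 RPKM. A gene-level value pools all exons, so it neither bears out nor contradicts the Notch2 label. All 9 myogenic progenitor markers and all 14 markers of differentiating muscle averaged 1 RPKM or more. So did 10 of 12 interstitial fibroblast, 10 of 11 cartilage and tendon and 4 of 10 endothelial markers, so presence alone does not identify the lineage. The differentiating muscle markers summed to 4735 RPKM in Notch1 cKO Em8, to 6161 RPKM and 5650 RPKM in the WT libraries, and to 7678 RPKM and 7792 RPKM in the Notch2 cKO libraries. The list did not move as one in Notch1 cKO Em8. Of its 14 genes, 5 were below both WT libraries (Myog, Actc1, Tnnt1, Tnnc1 and Tnni1), 5 were above both (Myl1, Mylpf, Acta1, Tnnt3 and Ckm) and 4 lay between. Of all genes tested, 26.1% were below both WT libraries and 24.3% above both. Libraries differed in markers of other cells too. The sum of 11 cartilage and tendon markers was 229 RPKM in Notch2 cKO Em4 and 50.3 to 75.1 RPKM elsewhere. Its most abundant gene on average, the tendon factor gene Scx, was level at 30.5 to 37.9 RPKM. The cartilage genes were what was high in Notch2 cKO Em4, such as Col2a1 at 55.4 RPKM against 0.648 to 7.62 RPKM in the other libraries; it and the genes named next for heat shock and myeloid cells were chosen after their values were seen. The sum of 12 interstitial fibroblast markers ran from 179 RPKM in WT Em2 to 422 RPKM in Notch2 cKO Em4, led by the collagen gene Col3a1. The erythroid sum was 449 to 521 RPKM in Notch2 cKO, 979 and 1219 RPKM in WT and 1749 RPKM in Notch1 cKO (led by Hba-a2), and the stress gene sum was highest in Notch2 cKO Em3 at 2397 RPKM. Fos, its most abundant gene, was as high in Notch1 cKO Em8 (707 RPKM) as in Notch2 cKO Em3 (705 RPKM), while the heat-shock gene Hspa1b was at 165 RPKM in Notch2 cKO Em3 and at 3.16 to 9.24 RPKM elsewhere. Pericyte and smooth muscle markers (led by Acta2) summed to 374 to 539 RPKM, and Schwann and neural markers (led by Erbb3) to between 2.82 RPKM and 6.603 RPKM. Haematopoietic markers summed to 13.3 to 29.9 RPKM. The highest sum was that of Notch2 cKO Em4, where Cd68, the most abundant on average, was at its lowest (5.13 RPKM) and the myeloid gene Lyz2 was at 11.4 RPKM, against 0.891 to 4.098 RPKM elsewhere.

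The 10 genes fell into 3 tiers of level, and these tiers were the same in all 5 libraries. Mymx, Jam3, Cdh15 and Mymk averaged 266, 179.5, 163 and 151 RPKM and lay among the top 1.76% to 3.20% of named genes. Dock1, Myof, Jam2, Kirrel and Cdh2 averaged 7.60, 5.97, 5.30, 2.96 and 2.04 RPKM. Nphs1 averaged 0.0263 RPKM. Mymk, the lowest of the upper tier, exceeded Dock1, the highest of the middle tier, by 13.9 to 27.4 times within a library, and Cdh2 exceeded Nphs1 in each of the 5 libraries. Within a tier the order was less fixed. Mymx was above Jam3 in 5 of 5 libraries, while Jam3 was above Cdh15 and Cdh15 above Mymk in 3 of 5 each, and their ranges overlapped. Dock1 was above Myof and Jam2 above Kirrel in 5 of 5 libraries, with overlapping ranges; Myof was above Jam2 in 3 of 5 and Kirrel above Cdh2 in 4 of 5. Levels between genes rest on the lengths used by the authors, and with GENCODE M21 exon lengths the means became 252.5 RPKM for Mymx, 149 for Mymk, 142.5 for Cdh15, 110.5 for Jam3 and at most 5.55 for the other 6 genes.

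**Figure D1:**
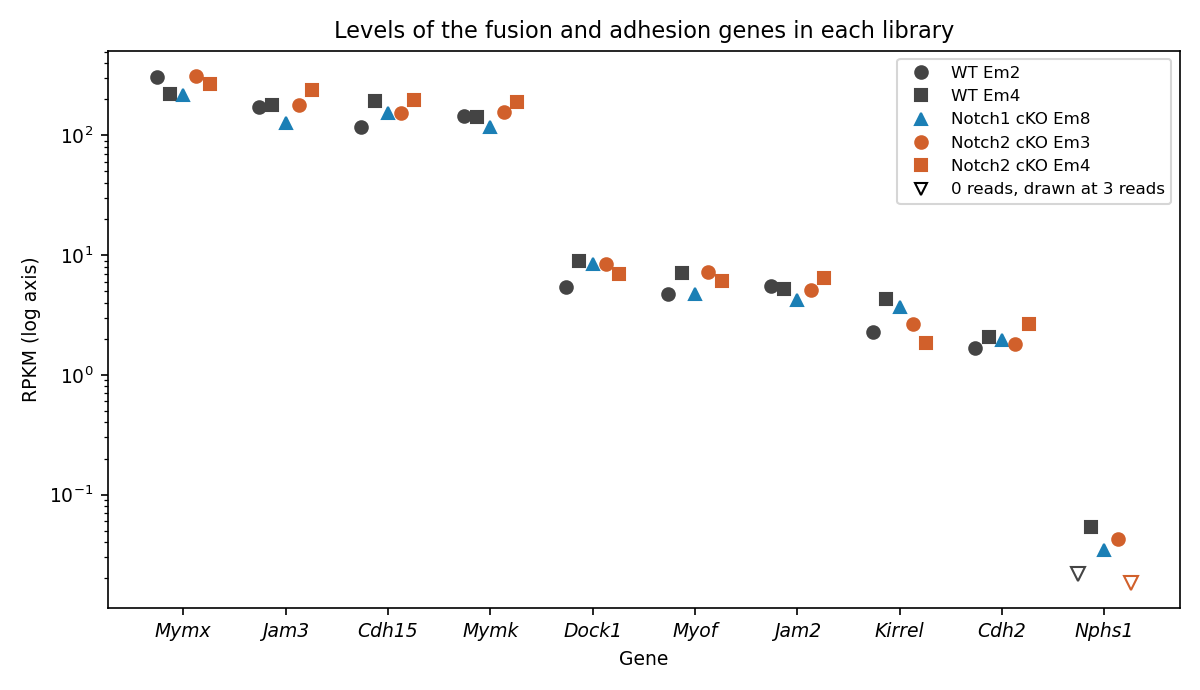
Level of each gene in RPKM on a log axis, with 1 point per library, coloured by group; open triangles mark libraries with 0 reads, drawn at the level of 3 reads. Mymx, Jam3, Cdh15 and Mymk lie between 117 and 313 RPKM in all 5 libraries, Dock1, Myof, Jam2, Kirrel and Cdh2 between 1.67 and 8.85 RPKM, and Nphs1 at or below 0.0541 RPKM.

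The fusion proteins themselves come first. Mymk (ENSMUSG00000009214.9, GRCm38 chromosome 2, 27061636 to 27072179, minus strand) encodes myomaker, a multipass membrane protein that is needed on both partners of a fusing pair in mouse and acts at the mixing of the outer membrane leaflets. For Mymk, WT Em2 held 146 RPKM and WT Em4 143 RPKM, Notch1 cKO Em8 held 117 RPKM, and the Notch2 cKO libraries Em3 and Em4 held 157 RPKM and 191 RPKM, from 4474 to 8204 reads. The groups did not overlap: the Notch1 cKO library was the lowest and both Notch2 cKO libraries were the highest. Of all genes tested, 10.3% had this order, and its lower end rests on a lone library. The WT pair lay 0.02 apart on the log2(RPKM + 1) scale, against a median gap of 0.32 over all genes tested, and the Notch2 cKO pair 0.28 apart. Mymk missed the limma threshold in Notch2 cKO against WT, with a log2 fold change of 0.26 (SE 0.27, adjusted p = 0.849), and in Notch1 cKO against WT, with −0.30 (SE 0.33, adjusted p = 1). Its difference between the knockouts was 0.56 with a 95% interval of −0.09 to 1.20 (limma adjusted p = 0.651).

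Mymx (ENSMUSG00000079471.4, GRCm38 chromosome 17, 45600971 to 45602102, minus strand) encodes myomixer, a short peptide with a single membrane span that acts after myomaker, at the opening of the fusion pore. For Mymx, WT Em2 held 308 RPKM and WT Em4 222 RPKM, Notch1 cKO Em8 held 218 RPKM, and the Notch2 cKO libraries Em3 and Em4 held 313 RPKM and 268 RPKM. The Notch1 cKO library was the lowest, though close to WT Em4, and the WT and Notch2 cKO ranges overlapped. The gap of the WT pair, 0.47 on the log2 scale, was wider than any difference of Mymx between groups. These differences were 0.15 in Notch2 cKO against WT (SE 0.28, limma adjusted p = 0.92), −0.26 in Notch1 cKO against WT (SE 0.34, adjusted p = 1) and 0.41 between the knockouts (SE 0.34, adjusted p = 0.783). The ratio of Mymx to Mymk within a library ran from 1.41 in Notch2 cKO Em4 to 2.11 in WT Em2. It did not separate the groups, at 2.11 and 1.55 in WT, 1.86 in Notch1 cKO and 1.99 and 1.41 in Notch2 cKO.

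Likeness of pattern to each of this pair over the 5 libraries was measured as the root mean square difference of log2(RPKM + 1) centred on the gene's mean, over 5752 other genes averaging 10 RPKM or more. For Mymk the 5 nearest were Rars (0.023), Xrcc5 (0.028), Pum3 (0.029), Orc3 (0.032) and Mff (0.035), where the median gene differed by 0.27. For Mymx they were Sec11c (0.025), Maip1 (0.037), Ppp2r3c (0.046), Ndufaf4 (0.055) and Mphosph6 (0.056), with a median of 0.32. Mymk and Mymx differed from each other by 0.22, which gave Mymx rank 2071 in likeness to Mymk, whereas Jam3 had rank 170 at 0.088. These values describe 5 libraries and carry no test.

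The cadherins and the junctional adhesion molecules mediate contact between myoblasts. Cdh15 (ENSMUSG00000031962.6, GRCm38 chromosome 8, 122847966 to 122867397, plus strand) encodes M-cadherin, the cadherin of satellite cells and myoblasts. For Cdh15, WT Em2 held 117 RPKM and WT Em4 193 RPKM, Notch1 cKO Em8 held 153 RPKM, and the Notch2 cKO libraries Em3 and Em4 held 155 RPKM and 196 RPKM. The lowest value was a WT library and the highest a Notch2 cKO library, and the other WT library lay close below it. The WT pair lay 0.71 apart on the log2 scale, more than any group difference of Cdh15. Its log2 fold change was 0.21 in Notch2 cKO against WT (SE 0.27, limma adjusted p = 0.876), 0.03 in Notch1 cKO against WT and 0.19 between the knockouts. A GENCODE read-through gene, Gm20388, overlaps Cdh15 exons on the same strand and has no row under that name in the table.

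Cdh15 is also the abundant member for which a promoter sequence could be read, so its E-boxes are shown. E-boxes, with the letters CANNTG on either strand, are the motif that MyoD, myogenin and many other basic helix-loop-helix factors bind. RefSeq promoters (build GRCm38.p6) were matched for 5 of the 10 genes: Cdh15, Dock1, Kirrel, Myof and Nphs1. In the 250 bases before the RefSeq start, Cdh15 held 3 matches and Dock1 held 1, where 66.2% of 32851 promoters held at least 1 and 12.2% held at least 3. The windows of Kirrel, Myof and Nphs1 held none, and CAGCTG, a form of the motif known to be favoured by MyoD, was in none of the 5 windows and in 13% of all promoters. Each match is printed with 10 bases on either side, 5′ to 3′ on the gene's strand, with the E-box in capitals and named by its distance before the RefSeq start.
Cdh15, 236 bases before the start, chr8:122848128-122848153, plus strand: gcactgatcaCATATGctgtcactca
Cdh15, 135 bases before the start, chr8:122848229-122848254, plus strand: ggcccacctaCATGTGctgtcactca
Cdh15, 32 bases before the start, chr8:122848332-122848357, plus strand: ccccaccacaCACGTGcagtcccttg
Dock1, 36 bases before the start, chr7:134670641-134670666, plus strand: cgccccgtccCACATGacaccgcctc
The upper pair of Cdh15 windows share the 10 bases that follow the E-box. GENCODE M21 starts Cdh15 further upstream, so the Cdh15 windows lie inside its annotated first exon there. It also starts Nphs1 and Kirrel further upstream than RefSeq, and Dock1 within the printed Dock1 window. The presence or lack of matches therefore holds for the RefSeq windows only. A match describes letters only, and no binding was measured.

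Cdh2 (ENSMUSG00000024304.14, GRCm38 chromosome 18, 16588877 to 16809246, minus strand) encodes N-cadherin, which is made by many mesenchymal and neural cells as well as by myoblasts. For Cdh2, WT Em2 held 1.67 RPKM and WT Em4 2.07 RPKM, Notch1 cKO Em8 held 1.97 RPKM, and the Notch2 cKO libraries Em3 and Em4 held 1.81 RPKM and 2.68 RPKM. Its highest value was in Notch2 cKO Em4, the library with the highest cartilage and fibroblast marker sums; their part in this value was not tested. Cdh15 exceeded Cdh2 by 70.4 to 93.1 times within a library. The log2 fold changes of Cdh2 were between 0.05 and 0.17 in the 3 comparisons, with limma adjusted p of at least 0.919.

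Jam2 and Jam3 encode immunoglobulin-superfamily adhesion molecules that bind each other, a contact that fusion of fast-muscle precursors needs in zebrafish. Jam3 (ENSMUSG00000031990.15, GRCm38 chromosome 9, 27097384 to 27155421, minus strand) was the abundant partner. For Jam3, WT Em2 held 173 RPKM and WT Em4 180.3 RPKM, Notch1 cKO Em8 held 126 RPKM, and the Notch2 cKO libraries Em3 and Em4 held 178 RPKM and 241 RPKM. The Notch1 cKO library was the lowest, Notch2 cKO Em4 stood above the rest, and Notch2 cKO Em3 lay between the WT values. Jam3 showed the largest difference among the members between the knockouts, 0.71 on the log2 scale with a 95% interval of 0.05 to 1.36. Its unadjusted p was 0.0339, in a comparison where 8.66% of all genes had one under 0.05, and its limma adjusted p was 0.529. With Notch1 cKO Em8 and Notch2 cKO Em3 alone, which carry the same digits in their column names, the difference was 0.49. Against WT, Jam3 differed by −0.48 in Notch1 cKO (SE 0.33, limma adjusted p = 1) and by 0.23 in Notch2 cKO (SE 0.27, adjusted p = 0.866). An antisense gene, Gm48796, overlaps Jam3 exons and has no row in the table, so reads of the pair could not be told apart without strand.

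Jam2 (ENSMUSG00000053062.16, GRCm38 chromosome 16, 84774123 to 84825928, plus strand) was far lower than its partner. For Jam2, WT Em2 held 5.54 RPKM and WT Em4 5.21 RPKM, Notch1 cKO Em8 held 4.25 RPKM, and the Notch2 cKO libraries Em3 and Em4 held 5.10 RPKM and 6.38 RPKM. Its lowest and highest libraries were those of Jam3, and the ratio of Jam3 to Jam2 ran from 29.7 in Notch1 cKO Em8 to 37.7 in Notch2 cKO Em4. Jam2 is also a gene of endothelial cells. Of 10 endothelial markers, 4 reached a mean of 1 RPKM. The sum of the 10 was 41.15 RPKM in Notch1 cKO Em8 and 21.9 to 28.2 RPKM elsewhere. Tek lay at 2.98 to 5.105 RPKM, while Pecam1 and Cdh5 were at most 0.657 and 0.133 RPKM in any library. The most abundant marker, Egfl7, reached 33.9 RPKM in Notch1 cKO Em8 but 15.9 to 19.5 RPKM elsewhere. Pecam1 was highest in the Notch2 cKO libraries, at 0.657 and 0.577 RPKM, but Emcn and Cldn5 in WT Em4, at 1.17 and 1.76 RPKM. The part of endothelial cells in the Jam2 values was not tested. The log2 fold changes of Jam2 were 0.07 in Notch2 cKO and −0.28 in Notch1 cKO against WT (limma adjusted p = 0.968 and 1).

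**Figure D2:**
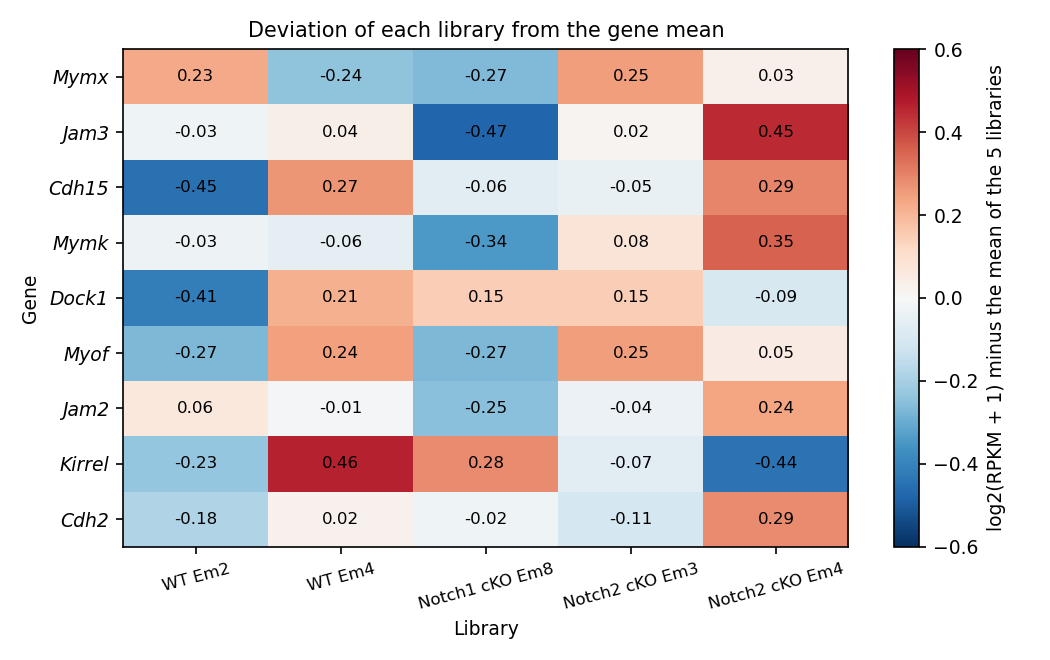
Difference of log2(RPKM + 1) in each library from the gene's mean over the 5 libraries, for the 9 genes tested; red is above and blue below the mean, and the number is the difference. Jam3, Mymk, Jam2 and Mymx have their lowest value in Notch1 cKO Em8, and Cdh15, Dock1, Myof and Cdh2 theirs in WT Em2. Myof is at −0.27 in both of these libraries. Of all genes tested, 21.5% were lowest in Notch1 cKO Em8 and 41.5% in WT Em2.

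Kirrel and Nphs1 are the mouse relatives of the Drosophila fusion receptors, which bind each other between founder cells and fusion-competent myoblasts; in mammals nephrin and its Kirrel partner are best known from the slit diaphragm of kidney podocytes. Nphs1 (ENSMUSG00000006649.17, GRCm38 chromosome 7, 30458315 to 30487223, plus strand) had 0 and 7 reads in WT Em2 and Em4, 5 reads in Notch1 cKO Em8, and 5 and 0 reads in Notch2 cKO Em3 and Em4. The highest value was 0.0541 RPKM in WT Em4, with an exact Poisson 95% interval of 0.0218 to 0.112. A count of 0 allows, at a limit of 3 reads, up to 0.0218 RPKM in WT Em2 and 0.0184 in Notch2 cKO Em4. Nphs1 was therefore not tested, and a difference between groups was not detectable at this depth. On the opposite strand, the antisense gene Nphs1os (0 RPKM in every library) and the pseudogene Rps12-ps4 (no row in the table) overlap Nphs1 exons. The source of these few reads could not be told without strand. Kirrel2, which lies 625 bases from Nphs1 on the opposite strand, was at most 0.124 RPKM, and Kirrel3 ranged from 0.442 to 0.686 RPKM.

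Kirrel (ENSMUSG00000041734.15, GRCm38 chromosome 3, 87078593 to 87174747, minus strand) was the member of this family with the highest level in all 5 libraries. For Kirrel, WT Em2 held 2.28 RPKM and WT Em4 4.31 RPKM, Notch1 cKO Em8 held 3.70 RPKM, and the Notch2 cKO libraries Em3 and Em4 held 2.67 RPKM and 1.83 RPKM. It had the widest range of the 9 members tested, 2.35 times from the lowest to the highest library. Kirrel was the 1 member of 9 tested whose estimate in Notch2 cKO against WT lay below 0, at −0.37 (SE 0.32, limma adjusted p = 0.823). Between Notch2 cKO Em4 and WT Em4, which share digits in their column names, the difference was −0.91, but without WT Em4 the estimate for Notch2 cKO against WT was −0.022. Between the knockouts it was −0.54 (SE 0.39, adjusted p = 0.743). The WT pair itself lay 0.70 apart.

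Myof and Dock1 act at the membrane and on actin. Myof (ENSMUSG00000048612.16, GRCm38 chromosome 19, 37899036 to 38043577, minus strand) encodes myoferlin, a C2-domain protein whose loss in mouse impairs myoblast fusion and muscle growth. For Myof, WT Em2 held 4.70 RPKM and WT Em4 7.14 RPKM, Notch1 cKO Em8 held 4.70 RPKM, and the Notch2 cKO libraries Em3 and Em4 held 7.17 RPKM and 6.11 RPKM. WT Em2 and Notch1 cKO Em8 were low and level with each other, and the other 3 libraries were higher. Dock1 (ENSMUSG00000058325.6, GRCm38 chromosome 7, 134670654 to 135173639, plus strand) encodes an exchange factor that works with Elmo proteins to activate the GTPase Rac. For Dock1, WT Em2 held 5.39 RPKM and WT Em4 8.85 RPKM, Notch1 cKO Em8 held 8.43 RPKM, and the Notch2 cKO libraries Em3 and Em4 held 8.40 RPKM and 6.96 RPKM. Here WT Em2 and WT Em4 were the ends of the whole range. Neither gene passed the limma test in any comparison (limma adjusted p of at least 0.824). Log2 fold changes against WT in Notch2 cKO and Notch1 cKO were 0.16 and −0.26 for Myof and 0.13 and 0.25 for Dock1. Between the knockouts they were 0.42 for Myof and −0.12 for Dock1. Both genes gave −0.27 or lower in WT Em2 relative to their mean, the library in which 41.5% of all genes tested had their lowest value.

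The libraries labelled Notch2 cKO were first set against the WT libraries. None of the 9 members tested passed limma's adjusted threshold, where 0.537% of 11543 genes did, and none had an unadjusted p under 0.05, where 7.63% did; limma voom on the recovered reads called no gene at all, with 803 at an unadjusted p under 0.05. The estimates were above 0 for 8 of 9 members and for 68.1% of all genes, but for 3 of 9 and 43.7% with median-of-ratios scaling of the libraries. Leaving out a single library also turned signs: Mymx fell below 0 without WT Em4, Cdh15, Myof and Dock1 without WT Em2, and Cdh2 and Jam2 without Notch2 cKO Em4. The median was 0.16 for the members and 0.14 for all genes. Mymk was the 1 member whose Notch2 cKO libraries were both above both WT libraries, as were 28.3% of all genes, while none was below both, as were 9.44%. For 8 of 9 members the 95% interval stayed within a 2-fold change of RPKM + 1 in either direction, the exception being Kirrel with a lower bound of −1.01 on the log2 scale. For low genes such as Cdh2 this scale understates the change, so the bound does not hold for RPKM itself. For Mymk the interval ran from 0.831 to 1.72 times the WT value of RPKM + 1, and for Mymx from 0.757 to 1.62 times.

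The comparison of Notch1 cKO with WT rests on 1 knockout library. None of 9 members passed, against 0.0693% of all genes, and none had an unadjusted p under 0.05, against 1.85%. The estimates were above 0 for 4 members (and for 51.5% of all genes) and below 0 for 5, with a median of −0.26 against 0.01 for all genes. The estimates of Cdh15, Cdh2, Kirrel and Dock1 turned below 0 without WT Em2, and that of Myof reached 0.00033 without WT Em4. The Notch1 cKO value lay below both WT values for 4 members, Mymk, Mymx, Jam2 and Jam3, and above both for none. Of all genes, 26.1% lay below both WT values and 24.3% above. The 95% interval stayed within a 2-fold change of RPKM + 1 for 5 of 9 members. Those of Jam2, Jam3 and Myof reached below it and that of Dock1 above it. Both knockouts were compared with the same WT libraries, so these results are not independent of each other.

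The direct comparison of the knockouts had the widest differences. None of 9 members passed, against 0.485% of all genes. Of the 9, 1 (Jam3) had an unadjusted limma p under 0.05, against 8.66% of all genes. Estimates were above 0 for 7 of 9, against 61.8%. Of the members, 6 were higher in both Notch2 cKO libraries than in the Notch1 cKO library (Mymk, Mymx, Cdh15, Jam2, Jam3 and Myof) and 2 were lower (Kirrel and Dock1), where 47.7% and 25.2% of all genes did so. The median difference was 0.35 for the members and 0.12 for all genes. The interval stayed within a 2-fold change of RPKM + 1 for 3 of 9 members, and the estimate of Cdh2 turned below 0 without Notch2 cKO Em4.

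**Figure D3:**
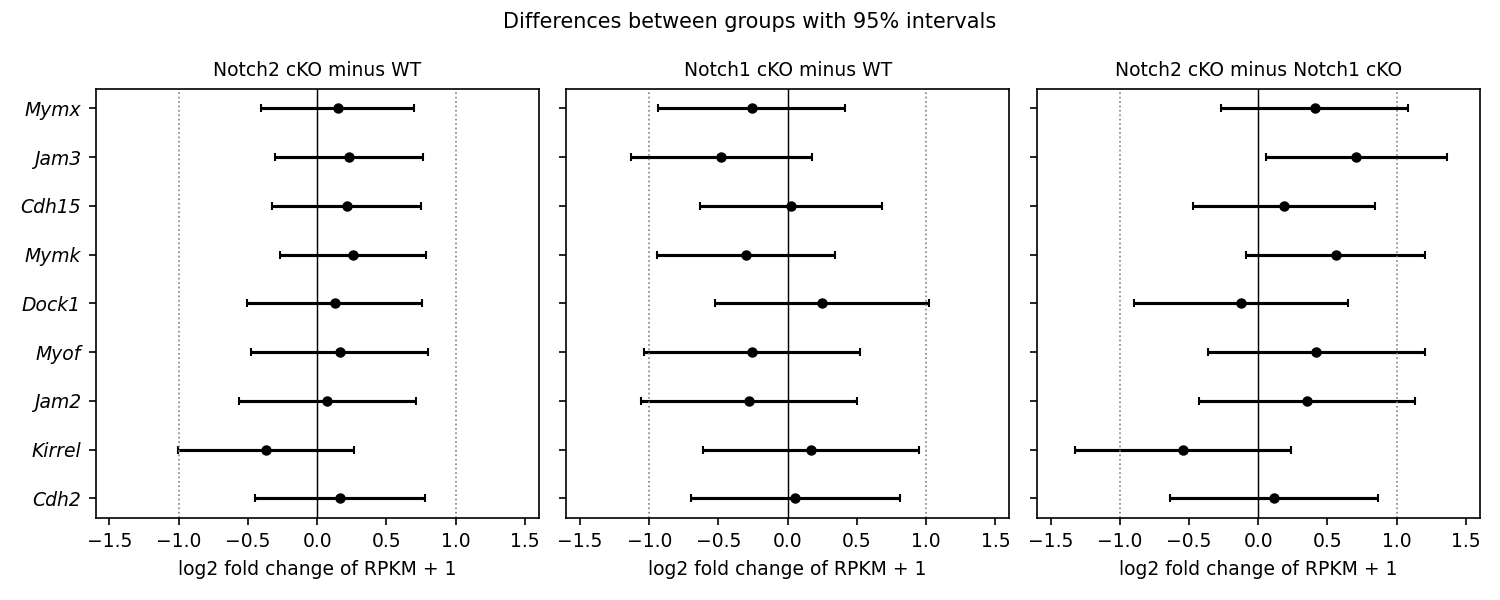
Log2 fold change of RPKM + 1 for the 9 genes tested in each comparison, as points with 95% intervals from limma. Dotted lines mark a 2-fold change of RPKM + 1. All intervals cross 0 except that of Jam3 in Notch2 cKO minus Notch1 cKO, which runs from 0.05 to 1.36 and does not pass after adjustment.

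In bulk samples a lower level can come from fewer cells of a type or from less RNA per cell, and these cannot be told apart. The differentiation factor genes are set beside the members here. Myog encodes myogenin, which drives myoblast differentiation. For Myog, WT Em2 held 1053 RPKM and WT Em4 1272 RPKM, Notch1 cKO Em8 held 944 RPKM, and the Notch2 cKO libraries Em3 and Em4 held 1655 RPKM and 1737 RPKM. For Myod1, the determination factor, WT Em2 held 135 RPKM and WT Em4 167 RPKM, Notch1 cKO Em8 held 109 RPKM, and the Notch2 cKO libraries Em3 and Em4 held 179.5 RPKM and 188 RPKM. Both transcription factor genes thus had the order Notch1 cKO, WT, Notch2 cKO without overlap, as did Mymk and 10.3% of all genes. Of the 14 differentiating muscle markers, which include Myog, 4 had this order (Myog, Actc1, Tnnc1 and Tnni1). In both Notch2 cKO libraries 10 of them were higher than in both WT libraries, as were 28.3% of all genes. For Pax7, the progenitor factor, WT Em2 held 9.90 RPKM and WT Em4 11.96 RPKM, Notch1 cKO Em8 held 13.4 RPKM, and the Notch2 cKO libraries Em3 and Em4 held 10.7 RPKM and 4.15 RPKM. The ratio of Mymk to Myog was 0.138 and 0.113 in WT, 0.124 in Notch1 cKO, and 0.0951 and 0.11 in Notch2 cKO. It was lower in both Notch2 cKO libraries than in both WT libraries. The same held for 7 of the 9 members and for 56.4% of all genes; Mymx and Cdh15 were the exceptions.

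**Figure D4:**
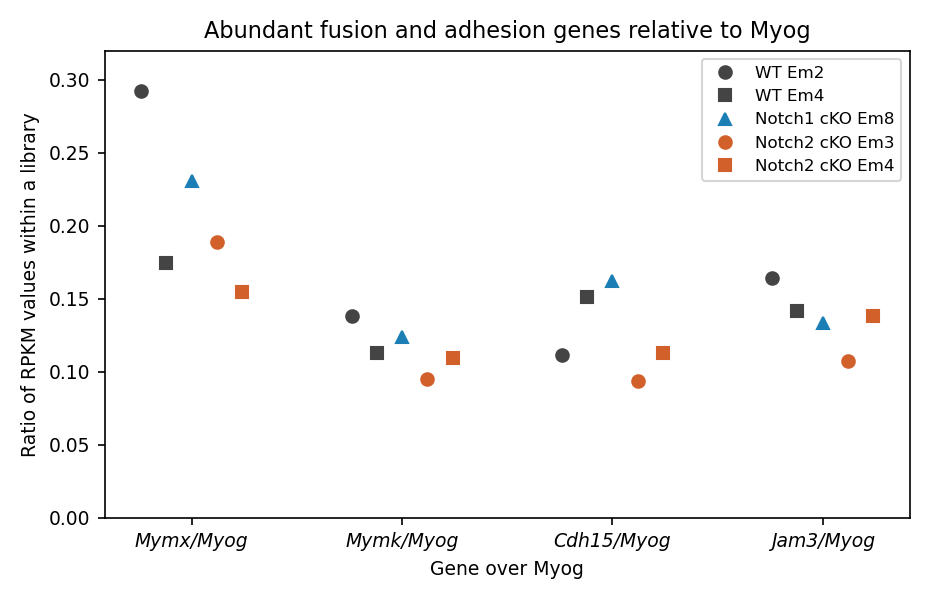
RPKM of Mymx, Mymk, Cdh15 and Jam3 divided by that of Myog in the same library, with 1 point per library. The Mymk ratio lies at 0.0951 and 0.11 in Notch2 cKO and between 0.113 and 0.138 in the other 3 libraries, while for Mymx and Cdh15 the WT and Notch2 cKO points overlap.

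Around these members lies a wider set of fusion and adhesion genes, 52 listed, 51 found in the table and 39 averaging 1 RPKM or more. None of the 39 passed limma's adjusted threshold in any of the 3 comparisons, with lowest adjusted p of 0.293, 1 and 0.302. In Notch2 cKO against WT, 31 were above 0 and 8 below, with a median of 0.23 against 0.14 for all genes; 4 of 39 (10.3%) had an unadjusted p under 0.05, against 7.63% of all genes. Of smallest p was Elmo1, the partner of Dock1 in Rac activation, where Notch2 cKO Em3 and Em4 held 3.997 RPKM and 5.02 RPKM, the WT libraries 1.52 RPKM and 2.35 RPKM, and Notch1 cKO Em8 1.59 RPKM (log2 fold change 0.92, SE 0.32, limma adjusted p = 0.293). Nckap1 encodes a subunit of the WAVE complex that drives branched actin; Notch2 cKO Em3 and Em4 held 13.7 RPKM and 27.3 RPKM of it, and the WT libraries 8.96 RPKM and 13.2 RPKM (limma adjusted p = 0.455). For the sialomucin gene Cd164, Notch2 cKO Em3 and Em4 held 109 RPKM and 188 RPKM and the WT libraries 91.6 RPKM and 98.2 RPKM (limma adjusted p = 0.575). Nckap1 and Cd164 were highest in Notch2 cKO Em4 by a wide margin, and in Notch2 cKO Em3 they were close to the upper WT value. The 3 of smallest p with a negative estimate were the receptor gene Cdon and the actin-linked Wipf1 and Actn1, with adjusted p of 0.805 to 0.898.

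In Notch1 cKO against WT, 27 of the 39 were above 0 and 12 below, where 51.5% of all genes were above 0. The median was 0.16, against 0.01 for all genes. None of the 39 had an unadjusted limma p under 0.05, against 1.85% of all genes. The 3 of smallest p on each side were Nfatc2, Ncam1 and Anxa1 above and Itga4, Ctnna1 and Cdc42 below, each with a limma adjusted p of 1. Ncam1, a homophilic adhesion molecule of myoblasts and nerve, was at 14.7 RPKM in Notch1 cKO Em8, where the WT libraries held 7.77 RPKM and 11.2 RPKM and the Notch2 cKO libraries 11.7 RPKM and 10.6 RPKM. Itga4, the integrin chain that binds Vcam1, was at 0.537 RPKM in Notch1 cKO Em8, where the WT libraries held 1.02 RPKM and 1.44 RPKM. Between the knockouts, Elmo1, Nckap1 and the alpha-catenin gene Ctnna1 were of smallest p with a positive estimate (adjusted p of 0.302, 0.364 and 0.457). Wipf1, Actn1 and Nfatc2 were those with a negative one (0.708 to 0.766).

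Several genes of the wider set were present at trace levels, below a mean of 1 RPKM. They included the phosphatidylserine receptor genes Adgrb1, Adgrb3 and Stab2, of which the highest value in any library was 0.267 RPKM, and the ferlin genes Dysf, Fer1l6 and Otof, of which it was 0.485 RPKM. Myof was thus the ferlin with the highest level among those found, and every one of these maxima except that of Adgrb1 was in Notch2 cKO Em3. Fer1l5 was not matched by symbol.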

How the data were processed

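The authors deposited a single table of RPKM values, which are reads scaled by gene length and by the reads of the library, with 5 columns per the file headers. Per the submitters' processing notes, bcl2fastq 2.20.0 was used and the build was mm10; the sources used here do not name the aligner, the counter or the annotation. The table has 27179 rows. Those without a gene name (1306 rows, 2.19% to 3.07% of the summed RPKM) entered no test.

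The members, lists and tests were chosen with earlier results of these data known. All 10 members were found by symbol. The genes named besides them are every gene of the list of other fusion and adhesion genes past the test, or else the 3 of smallest p per comparison and direction; the 5 genes most like Mymk and Mymx; the most abundant marker of each other cell type; and Notch1, Notch2, Myod1, Myog and Pax7. Other genes of the lists, such as Pecam1, Cdh5, Tek, Col2a1, Hspa1b, Lyz2, Kirrel2, Kirrel3 and the trace-level receptor and ferlin genes, are named outside this rule. Columns name a group and a tag but no replicate number, and each was assigned to its group only.

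Groups were compared with limma 3.58.1 (R 4.3.3) on log2(RPKM + 1), a scale that understates the change of low genes. A single fit with a trended prior held the 5 libraries and 1 mean per group, over 11543 genes averaging 1 RPKM or more. P-values, each two-sided, were adjusted over these genes by the Benjamini-Hochberg method, with calls at 0.05. There were 2 residual and 103.8 prior degrees of freedom, so the spread is mostly borrowed across genes, and Notch1 cKO, with its lone library, is taken to vary as the others do. No exact permutation of 2 against 2 can reach a p below 0.333.

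Whole reads and gene lengths were recovered from the RPKM values. Of 5646 low genes, 97.4% had a whole length within 0.02 bases, where 4% would by chance. The implied totals were 20740000 to 28830000 reads per library, and the recovered reads made up 99.3% of each. Intervals from reads cover counting error only, since the labels name no molecular identifiers. The limma script was run on simulated reads with known changes, as a check of the code. These reads had the same spread setting for every gene and no shifts in cell mixture. They do not measure how the test performs on these libraries. Alternatives were pseudocounts of 0.1 and 0.5, other filters and scalings, each library left out in turn, only the 2 groups compared, limma voom on the recovered reads, and removal of the gene length trend. Gene positions were looked up by symbol in GENCODE M21 (GRCm38), whose gene models can differ from those behind the table.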

Additional observations from a re-analysis of the deposited data

How the results depend on the processing

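No member and no other fusion or adhesion gene passed the threshold in any comparison under any of the 14 or 15 alternatives; Cdh2 and Kirrel lie below the filter of a mean of at least 5 RPKM, and the lone Notch1 cKO library could not be left out of its own comparisons. The number of all genes past it was not stable. In Notch2 cKO against WT it was 62, and it became 0 without a filter and with limma voom, 33 with a mean of at least 5 RPKM, 28 after rescaling to the same sum, 4 after quantile normalization, 1 with the length trend removed, and 13 to 287 with a library left out (13 without WT Em2, 39 without Notch2 cKO Em4, 287 without WT Em4). In Notch1 cKO against WT it was 8, and became 15 with a pseudocount of 0.1, 0 without a filter and with the length trend removed, 22 after median-of-ratios scaling, 3 after rescaling and with voom, 1 after quantile normalization, and 1 to 5 with a library left out (1 without WT Em4, 5 without each of the others). Between the knockouts it was 56, and became 0 without a filter and with the length trend removed, 86 after median-of-ratios scaling, 27 after rescaling, 13 after quantile normalization, 14 with voom, and 35 (without Notch2 cKO Em4) to 67 with a library left out. The cause was not tested.

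Of the members' signs, Mymk, Jam3 and Kirrel in Notch2 cKO against WT, Mymk, Mymx, Jam2 and Jam3 in Notch1 cKO against WT, and Mymk, Mymx, Jam2, Jam3, Kirrel and Myof between the knockouts kept theirs under every alternative run. Some came close to 0 with a library left out: in Notch2 cKO against WT, Jam3 became 0.011 without Notch2 cKO Em4 and Kirrel −0.022 without WT Em4, and in Notch1 cKO against WT, Mymx became −0.024 without WT Em2. The others turned. In Notch2 cKO against WT, median-of-ratios scaling gave −0.068 for Mymx, −0.0028 for Cdh15, −0.11 for Jam2, −0.022 for Myof and −0.062 for Dock1, quantile normalization gave −0.0040 for Cdh2, −0.12 for Jam2, −0.026 for Myof and −0.066 for Dock1, and removing the length trend gave −0.040 for Cdh15, −0.037 for Cdh2 and −0.12 for Jam2. In Notch1 cKO against WT, Cdh15 became −0.047 with median-of-ratios scaling and Cdh2 −0.016 with quantile normalization. Between the knockouts, Dock1 became 0.036 after rescaling, and Cdh15 and Cdh2 −0.083 and −0.040 with the length trend removed. The median of all genes moved from 0.14 to −0.04 with median-of-ratios scaling and to 0.28 after rescaling in Notch2 cKO against WT.

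With a library left out, the estimates that changed sign in Notch2 cKO against WT ran from −0.088 to 0.38 for Mymx, −0.14 to 0.57 for Cdh15, −0.029 to 0.36 for Cdh2, −0.063 to 0.21 for Jam2, −0.095 to 0.42 for Myof and −0.19 to 0.44 for Dock1. In Notch1 cKO against WT they ran from −0.33 to 0.38 for Cdh15, −0.048 to 0.16 for Cdh2, −0.18 to 0.52 for Kirrel, −0.51 to 0.00033 for Myof and −0.063 to 0.56 for Dock1, and between the knockouts from −0.083 to 0.31 for Cdh2. No paired analysis was possible because the columns of the table carry no replicate numbers, and the digits in their names, of unstated meaning, join at most 1 pair of libraries in a comparison.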
